A study of Homo sapiens with 11 samples.

Results

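Antigen presentation by major histocompatibility complex (MHC) class I was followed through 9 genes, chosen by symbol for their place in the pathway and found in every deposited count table among 59087 genes. They are the heavy chains HLA-B, HLA-C and HLA-E, the light chain B2M, the peptide transporter genes TAP1 and TAP2, the immunoproteasome subunits PSMB8 and PSMB9, and NLRC5, an activator of class I transcription. RNA was measured in 11 libraries of 2 estrogen receptor positive breast cancer lines, BT483 and T47D-TamR. The T47D-TamR line is a tamoxifen-resistant derivative of T47D, obtained by continuous passage in tamoxifen and propagated in that drug. All cells were first deprived of estrogen for 48 h, the controls included. In each line the siRNA arm held 1 library each of NLK siRNA type 1, NLK siRNA type 2, control siRNA with 0.5 µM tamoxifen, and control siRNA alone. These siRNAs were used at 10 nM for 72 h, and the control siRNA is a pool that targets no gene. In T47D-TamR a drug arm without siRNA added 1 library each of 0.5 µM VX-702, DMSO with 0.5 µM tamoxifen, and DMSO alone. NLK is a serine/threonine kinase of the MAP kinase group, and VX-702, which the labels present as a drug directed at NLK, is otherwise known as an inhibitor of p38 MAP kinase. Tamoxifen is an estrogen receptor antagonist in breast cells.

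MHC class I molecules show peptides from inside the cell to CD8 T cells. Proteasomes cut cytosolic proteins, TAP1 and TAP2 pair up to pump the peptides into the endoplasmic reticulum, and there the peptides are loaded onto a heavy chain held together with B2M. HLA-B and HLA-C are classical heavy chains, while HLA-E mainly presents leader peptides of other heavy chains to NKG2A receptors of natural killer cells. PSMB8 and PSMB9 replace the constitutive subunits PSMB5 and PSMB6 in the immunoproteasome. NLRC5 joins a complex at the SXY module of class I promoters and activates most of these genes together, and interferons raise the whole set through STAT and IRF factors. Loss of class I genes is one way by which tumors escape T cells.

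Each of the 11 groups is a single library made from its own dish of cells. The libraries held 14637083 to 26915863 counts, and 3 counts, taken as the limit of detection, corresponded to 0.111 to 0.205 CPM (counts scaled to library size, here always with the trimmed mean of M values, TMM). The 10 luminal epithelial markers were detected in all 11 libraries, with a summed 14600 to 16920 CPM in BT483 and 6105 to 8720 CPM in T47D-TamR. Defining leukocyte genes were at or near 0, since CD3D had no count in any library, MS4A1 at most 1 and PTPRC at most 2. The heavy chain genes are polymorphic and close in sequence, and HLA-B and HLA-C share exon positions on 1 strand in GENCODE 29. The treatment of reads that match several genes is not given in the sources used here, so the division of counts among HLA-B, HLA-C and HLA-E is uncertain. PSMB8 and PSMB9 overlap each other in exons, TAP1, PSMB8 and PSMB9 overlap PSMB8-AS1, and TAP2 overlaps AL669918.1, and whether counting used the strand is not stated.

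In GRCh38 coordinates from GENCODE 29, 7 of the 9 genes lie in the MHC on chromosome 6. HLA-E occupies chr6:30489467-30494205 on the plus strand, HLA-C chr6:31268749-31272130 and HLA-B chr6:31269491-31357188 on the minus strand. The transporter and immunoproteasome genes form 1 block, with TAP2 at chr6:32821833-32838780, PSMB8 at chr6:32840717-32844703 and TAP1 at chr6:32845209-32853978 on the minus strand and PSMB9 at chr6:32844136-32859585 on the plus strand. B2M lies outside the MHC at chr15:44711487-44718877 and NLRC5 at chr16:56989485-57083531, both on the plus strand.

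The promoters of the members show which known elements of class I control stand before them. Of the 9 genes, 7 had an entry in the RefSeq promoter table for GRCh38.p14, and the 250 bases before the start are printed for the 5 with a match to an interferon-stimulated response element (ISRE), 5′ to 3′ on the gene's strand, with motif matches in capitals.
HLA-B: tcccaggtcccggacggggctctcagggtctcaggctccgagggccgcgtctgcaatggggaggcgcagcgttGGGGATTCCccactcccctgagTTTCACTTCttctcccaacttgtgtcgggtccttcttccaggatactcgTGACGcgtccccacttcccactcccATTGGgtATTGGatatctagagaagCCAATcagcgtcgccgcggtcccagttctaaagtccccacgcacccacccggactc
HLA-C: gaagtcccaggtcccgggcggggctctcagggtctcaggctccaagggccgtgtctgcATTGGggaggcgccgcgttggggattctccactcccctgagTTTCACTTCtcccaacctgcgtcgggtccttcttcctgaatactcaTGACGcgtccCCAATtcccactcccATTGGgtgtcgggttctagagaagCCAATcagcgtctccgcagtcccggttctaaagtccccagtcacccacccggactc
B2M: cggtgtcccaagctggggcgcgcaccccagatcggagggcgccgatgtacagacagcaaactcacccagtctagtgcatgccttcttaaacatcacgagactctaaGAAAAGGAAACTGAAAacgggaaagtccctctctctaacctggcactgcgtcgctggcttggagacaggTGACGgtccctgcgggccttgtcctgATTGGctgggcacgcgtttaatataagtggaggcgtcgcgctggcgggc
TAP1: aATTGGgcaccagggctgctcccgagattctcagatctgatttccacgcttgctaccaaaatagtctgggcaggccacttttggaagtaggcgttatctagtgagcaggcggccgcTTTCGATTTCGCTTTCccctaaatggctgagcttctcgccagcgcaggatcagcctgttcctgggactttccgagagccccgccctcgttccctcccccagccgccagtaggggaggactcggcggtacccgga
TAP2: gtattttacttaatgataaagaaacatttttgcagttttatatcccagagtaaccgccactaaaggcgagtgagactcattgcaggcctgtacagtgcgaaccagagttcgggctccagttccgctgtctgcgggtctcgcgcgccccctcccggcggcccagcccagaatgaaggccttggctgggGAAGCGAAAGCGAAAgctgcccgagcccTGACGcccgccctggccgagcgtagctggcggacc
These windows are chr6:31357180-31357429 (HLA-B, minus strand), chr6:31272093-31272342 (HLA-C, minus), chr15:44711267-44711516 (B2M, plus), chr6:32853705-32853954 (TAP1, minus, the first of its 2 listed starts) and chr6:32838740-32838989 (TAP2, minus). Matches were searched on both strands. The ISRE core, GAAA repeated after any 2 bases, occurred in B2M and TAP1, each as an overlapping pair, and once in TAP2, against 3.02% of 35116 promoter windows of the same length. The shorter GAANNGAAA, added after these promoters had been read, was found in HLA-B, HLA-C and TAP2, where it overlaps the longer match, and in 6.56% of all windows. TGACG, the core of the X2 box bound by CREB and ATF factors, stood in HLA-B, HLA-C, B2M and TAP2, also in PSMB8 and PSMB9, and in 21.2% of windows. CCAAT, the Y box bound by NF-Y, was present in HLA-B, HLA-C, B2M and TAP1, also in PSMB9, and in 32.0% of windows. The pattern GGGNNTTCC of NF-κB sites matched HLA-B, the second start of PSMB8 and 5.78% of windows. TTCNNNGAA, the gamma interferon activated sequence (GAS), matched only the second starts of TAP1 and PSMB8, and 6.57% of windows. These are matches of letters and not bound sites.

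The class I genes spanned a wide range of levels, with heavy chains at the top and NLRC5 at the bottom in TPM in both lines. Levels are compared between genes in TPM, the abundance per gene length that the authors deposited. For B2M and NLRC5 that length was all annotated exons joined, 6079 and 12386 bases, so the order depends on this choice. In CPM, B2M lay above HLA-E, with medians of 208 and 117 in BT483 and 346 and 213 in T47D-TamR. NLRC5 had a median of 16.6 CPM in BT483, above PSMB9 at 9.15 CPM. In the 7 T47D-TamR libraries the median was 1074 TPM for HLA-B (864 to 1469), 506 TPM for HLA-C, 193 TPM for HLA-E, 160 TPM for B2M and 67.2 TPM for TAP1. PSMB8 had a median of 25.6, PSMB9 of 12.0, TAP2 of 10.4 and NLRC5 of 0.982 TPM there. In the 4 BT483 libraries HLA-C led with a median of 461 TPM, before HLA-B at 258, HLA-E at 119, B2M at 102 and TAP1 at 51.1 TPM. PSMB8 followed at 21.2, TAP2 at 10.9, PSMB9 at 8.39 and NLRC5 at 4.10 TPM. HLA-C was above HLA-B in 4 of 4 BT483 libraries and below it in 7 of 7 T47D-TamR libraries. Neighbours in these orders were not always apart: HLA-E exceeded B2M in 3 of 4 BT483 libraries, and PSMB9 exceeded TAP2 in 6 of 7 T47D-TamR libraries. In BT483 the ranges of all neighbouring genes overlapped, and a single library carried the highest value of all 9 genes.

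**Figure D1:**
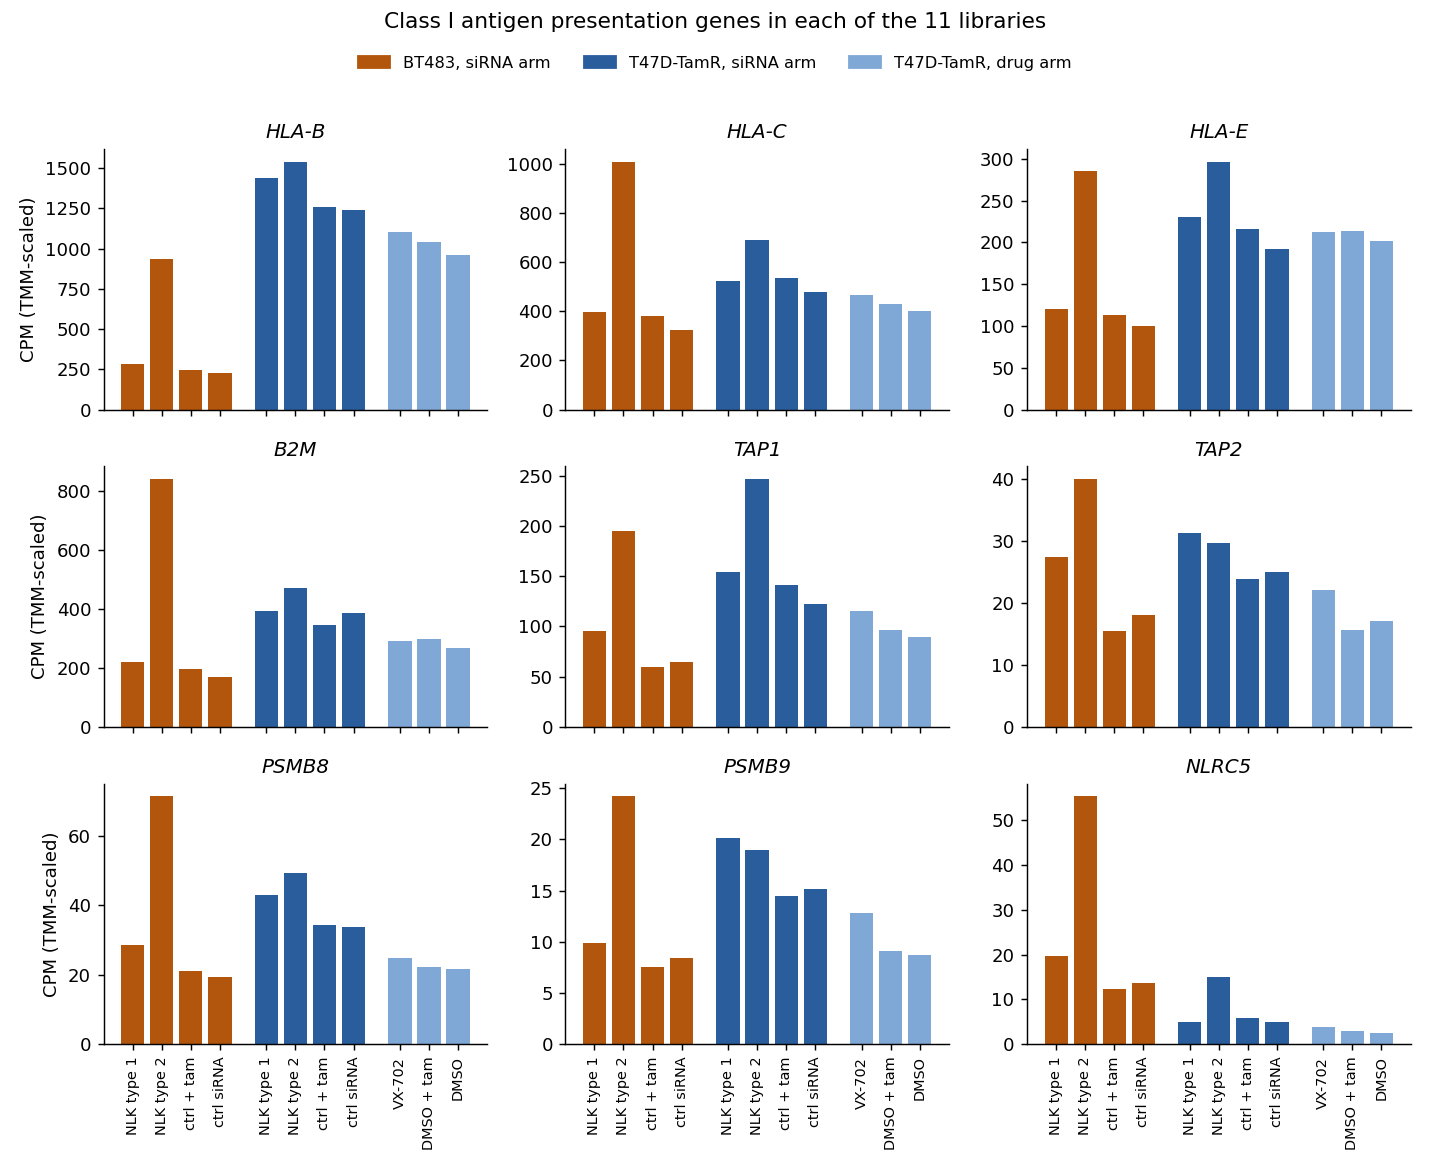
TMM-scaled CPM (vertical axes, each from 0) of the 9 genes in each of the 11 libraries, 1 bar a library, with treated libraries left of their control. The library of BT483 with NLK siRNA type 2 has the highest bar of its line for all 9 genes, for B2M 842 CPM against 169 CPM in control siRNA.

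The knockdown was first checked on its target. NLK stood at 8.56 CPM with type 1 and 5.50 CPM with type 2 in BT483, against 30.0 CPM with control siRNA. In T47D-TamR it was 10.2 CPM with type 1 and 12.0 CPM with type 2, against 29.6 CPM with control siRNA. The remaining NLK amounted to 28.5% with type 1 and 18.3% with type 2 of the BT483 control, and to 34.5% with type 1 and 40.4% with type 2 of the T47D-TamR control. Both siRNAs are given in the protocol, and they are printed because the class I genes differed between the 2 types; that type 1 and type 2 are the protocol's siRNA 1 and siRNA 2 rests on the numbering alone.
siRNA 1: gucaguaacagauccaaga
siRNA 2: gagcugaauuugaagacua
The first matches chr17:28122603-28122621 in coding exon 2 of 11 of NLK, and the second chr17:28196045-28196063 in exon 11, outside the coding sequence, both on the plus strand. Neither matches a transcript of another gene exactly. Per the labels, siRNA 1 was also bought from a second supplier in a version with stronger NLK inhibition, and which version was used is not given.

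All 9 genes were more than 2-fold higher in the BT483 library with NLK siRNA type 2 than in control siRNA. That was the case for 1.36% of the 12165 genes whose mean in this line reached 5 CPM. The log2 ratios ran from 1.14 for TAP2 to 2.32 for B2M with a median of 1.65, against a median of 0.02 over all those genes. With 1 library on each side there is no test of this comparison, and the intervals given with ratios are exact 95% binomial intervals that cover counting error only. In bulk RNA, more expressing cells and more RNA per cell cannot be told apart.

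Among the heavy chains HLA-B had 938 CPM with NLK siRNA type 2 in BT483, and 284 CPM with type 1, 244 CPM with tamoxifen and 227 CPM in control siRNA. HLA-C had 1008 CPM with type 2, 397 CPM with type 1, 380 CPM with tamoxifen and 321 CPM in control siRNA. HLA-E had 285 CPM with type 2, 121 CPM with type 1, 113 CPM with tamoxifen and 99.4 CPM in control siRNA. The type 2 library was thus alone at the top for each heavy chain, and the other 3 libraries lay close together. The ratio of type 2 to control siRNA was 4.138 (4.002 to 4.279) for HLA-B, 3.14 (3.05 to 3.23) for HLA-C and 2.87 (2.72 to 3.02) for HLA-E. B2M, which every heavy chain needs for its fold, showed the largest ratio of the 9 genes. Its 842 CPM with type 2 stood against 218 CPM with type 1, 197 CPM with tamoxifen and 169 CPM in control siRNA, a ratio to control of 4.98 (4.79 to 5.18).

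The peptide supply genes were also highest with type 2 and next highest with type 1. TAP1 had 195 CPM with type 2, 95.8 CPM with type 1, 59.9 CPM with tamoxifen and 64.4 CPM in control siRNA. TAP2, its partner in the transporter, had 40.0 CPM with type 2, 27.4 CPM with type 1, 15.5 CPM with tamoxifen and 18.1 CPM in control siRNA. TAP1 was therefore 3.03 times (2.84 to 3.23) and TAP2 2.21 times (1.95 to 2.51) its control level with type 2. PSMB8 had 71.6 CPM with type 2, 28.5 CPM with type 1, 21.0 CPM with tamoxifen and 19.2 CPM in control siRNA. PSMB9 had 24.2 CPM with type 2, 9.86 CPM with type 1, 7.51 CPM with tamoxifen and 8.43 CPM in control siRNA. The immunoproteasome subunits reached 3.72 times (3.31 to 4.19) and 2.87 times (2.40 to 3.46) their control levels with type 2. NLRC5, the activator, had 55.4 CPM with type 2, 19.6 CPM with type 1, 12.2 CPM with tamoxifen and 13.6 CPM in control siRNA, and its ratio of type 2 to control was 4.08 (3.56 to 4.70). The library with type 2 and that with tamoxifen were deeper, at 25728513 and 25274101 counts, than control siRNA at 16859630 counts. The part of depth in these ratios was not tested.

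With NLK siRNA type 1 in BT483 the genes were also above control siRNA, by less. All 9 log2 ratios were positive, from 0.22 for PSMB9 to 0.60 for TAP2, with a median of 0.37 against 0.00 over all genes. None of the 9 was 2-fold higher, against 0.123% of all those genes. TAP1 at 1.49 times (1.38 to 1.61), TAP2 at 1.51 times (1.31 to 1.76), PSMB8 at 1.48 times (1.28 to 1.71) and NLRC5 at 1.44 times (1.21 to 1.71) the control level stood further above it than the heavy chains, at 1.22 to 1.25 times. The interval of PSMB9 included no difference (0.926 to 1.48).

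In T47D-TamR the 9 genes were higher with NLK siRNA type 2 as well, and 2 of them more than 2-fold. Of 11732 genes at 5 CPM or more in this line, 0.725% were as much higher. NLRC5 had 14.9 CPM with type 2, 4.84 CPM with type 1, 5.74 CPM with tamoxifen and 5.01 CPM in control siRNA, a ratio of type 2 to control of 2.97 (2.42 to 3.67). TAP1 had 247 CPM with type 2, 154 CPM with type 1, 141 CPM with tamoxifen and 122 CPM in control siRNA, a ratio of 2.03 (1.94 to 2.12). TAP1 stood so close to the 2-fold line that an adjustment for gene length and GC content left NLRC5 (log2 ratio 1.41) as the only gene past it, with TAP1 at 0.86. The heavy chains lay closer to their controls. HLA-B had 1540 CPM with type 2, 1438 CPM with type 1, 1260 CPM with tamoxifen and 1237 CPM in control siRNA. HLA-C had 691 CPM with type 2, 521 CPM with type 1, 533 CPM with tamoxifen and 479 CPM in control siRNA, and HLA-E had 297, 230, 216 and 192 CPM in the same order. Type 2 was again the highest library for each heavy chain, by a smaller margin than in BT483. B2M had 471 CPM with type 2, 392 CPM with type 1, 346 CPM with tamoxifen and 388 CPM in control siRNA, so that type 2 was at 1.22 times (1.18 to 1.25) the control level. B2M had the largest ratio of the 9 in BT483 and one of the 2 smallest here.

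TAP2 and PSMB9 did not clearly favour type 2 over type 1 in T47D-TamR, while PSMB8 was higher with type 2, at 1.15 times (1.06 to 1.25). TAP2 had 29.6 CPM with type 2, 31.3 CPM with type 1, 23.9 CPM with tamoxifen and 25.1 CPM in control siRNA. PSMB8 had 49.5 CPM with type 2, 43.1 CPM with type 1, 34.3 CPM with tamoxifen and 33.7 CPM in control siRNA. PSMB9 had 19.0 CPM with type 2, 20.2 CPM with type 1, 14.4 CPM with tamoxifen and 15.1 CPM in control siRNA. The type 2 to type 1 ratios of TAP2 (0.854 to 1.05) and PSMB9 (0.828 to 1.07) had intervals on both sides of 1. Their order depended on the scaling. In TPM, TAP2 had 13.5 with type 2 and 12.3 with type 1, and PSMB9 had 16.6 and 15.2. With type 1 against control siRNA, 8 of 9 log2 ratios were positive, from -0.05 for NLRC5 to 0.41 for PSMB9, with a median of 0.26 against 0.03 over all genes. None was past 2-fold, as 0.0767% of genes were in the higher direction.

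**Figure D2:**
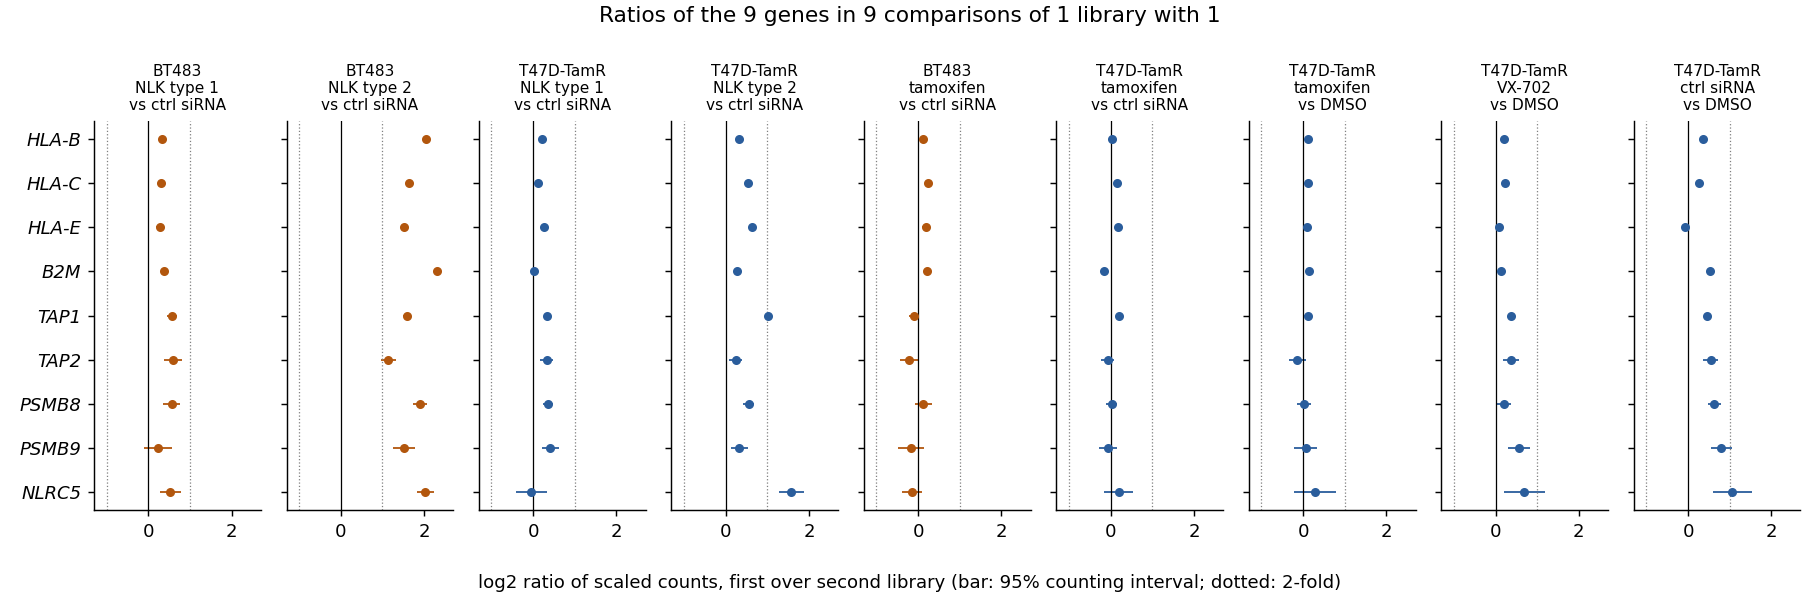
Log2 ratios (horizontal axes) of the 9 genes in 9 comparisons of 1 treated library with 1 control library, with exact 95% counting intervals and dotted lines at 2-fold. In BT483 with NLK siRNA type 2 all 9 genes lie right of the 2-fold line, and in T47D-TamR with type 2 only TAP1 and NLRC5 reach it.

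Across libraries, the question of whether NLK knockdown moved these genes was put to a fit of all counts (edgeR quasi-likelihood F test, 2-sided, Benjamini-Hochberg adjustment over 24023 genes), in which 4 knockdown libraries of both siRNAs and both lines were set against the control siRNA libraries. None of the 9 genes passed the adjusted threshold of 0.05, and 0.00416% of all genes did, namely NLK itself (log2 change -1.75, adjusted p = 0.031). All 9 estimates were positive, with a median of 0.87 against 0.02 over all genes tested. An unadjusted p under 0.05 was found for 5 of the 9, and for 1331 of the 24023 genes. They ran from 0.61 ± 0.19 (SE) for TAP2 to 1.29 ± 0.55 for NLRC5, and the smallest adjusted p was 0.880. DESeq2 and limma on the deposited log2 TPM table also called none of the 9. An edgeR fit with no filter on low counts called 7 of them, all but TAP2 and PSMB9, and 249 genes in all. Without the BT483 library with type 2 the estimates ranged from 0.30 for B2M to 0.82 for NLRC5, with an adjusted p of 0.991.

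Within a line the estimate rested on 2 knockdown libraries, 1 of each siRNA. In BT483 the median log2 change of the 9 genes was 1.16, from 0.88 ± 0.26 (SE) for TAP2 to 1.63 ± 0.96 for B2M, and none was called by edgeR, DESeq2 or limma, while 2 (TAP2 and PSMB8) had an unadjusted p under 0.05. In T47D-TamR the median was 0.44, from 0.26 ± 0.80 for B2M to 1.03 ± 0.93 for NLRC5, again with none called by the 3 tools and none at an unadjusted p under 0.05. Of 24023 genes tested, 814 in BT483 and 1371 in T47D-TamR had an unadjusted p under 0.05. One gene in each line, 0.00416% of those tested, passed the threshold. In BT483 that gene was NLK (log2 change -2.13 ± 0.26), while in T47D-TamR NLK, the target of the siRNAs, was not called (-1.38 ± 0.24). The difference between the lines in the response to knockdown was positive for 9 of 9 genes and largest for B2M, at 1.37 ± 1.21. No gene in the whole table passed that test (0.0%). None of the 9 had an unadjusted p under 0.05 in it, as 735 of 24023 genes had. Without the BT483 library with type 1, 6 of the 9 genes were called for knockdown in BT483, as were 149 of 23742 genes in all. Those 6 were HLA-B, HLA-C, HLA-E, B2M, PSMB8 and PSMB9.

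The siRNAs themselves were then compared, type 2 with type 1. In BT483 8 of the 9 genes were more than 2-fold higher with type 2 (1.55% of genes), TAP2 being the exception at a log2 ratio of 0.54, and in T47D-TamR 1 was, NLRC5 (0.656%). In the fit over both lines NLRC5 was called, with a log2 difference of 1.54 ± 0.23 (SE, edgeR quasi-likelihood F test, adjusted p = 0.010), while 0.47% of genes were called in either direction and 0.2% as higher with type 2. It was higher with type 2 in both lines, with log2 ratios of 1.497 in BT483 and 1.60 in T47D-TamR, the closest match between the lines among the 9. Next came TAP1 at 0.87 ± 0.18 (adjusted p = 0.058), HLA-E at 0.83 ± 0.19 (0.091) and HLA-C at 0.92 ± 0.23 (0.131). All 9 differences were positive with a median of 0.87, against 0.01 over all genes. An unadjusted p under 0.05 was found for 6 of the 9, and for 2191 of 24023 genes. B2M had an estimate of 1.24 ± 0.50 and HLA-B of 1.03 ± 0.45 (adjusted p = 0.568 and 0.594). In single libraries B2M was higher with type 2 by 1.95 in BT483 and 0.26 in T47D-TamR, while HLA-B was higher by 1.72 in BT483 and 0.10 in T47D-TamR. DESeq2 called HLA-C, HLA-E and TAP1 besides NLRC5, among 341 of 41317 genes, and limma on deposited values called none. The call of NLRC5 was lost without either BT483 knockdown library (adjusted p = 0.107 without type 1 and 0.139 without type 2) and without T47D-TamR type 1 (0.280). Without T47D-TamR type 2, 8 of the 9 genes, all but TAP2, were called, as were 99 of 23907 genes in all. The difference in NLK itself between the types was within its error (-0.14 ± 0.28).

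Ratios within a library, which no scaling between libraries touches, also set the type 2 libraries apart. PSMB8 over PSMB5, the immunoproteasome subunit over the constitutive one it replaces, was 0.336 with type 2, 0.160 with type 1, 0.115 with tamoxifen and 0.108 in control siRNA of BT483. In T47D-TamR it was 0.284 with type 2, 0.174 with type 1, 0.178 with tamoxifen and 0.180 in control siRNA. PSMB9 over PSMB6 was 0.218 with type 2, 0.100 with type 1, 0.0805 with tamoxifen and 0.0967 in control siRNA of BT483. In T47D-TamR this ratio was 0.129 with type 2 and between 0.0846 and 0.0916 in the other 3 siRNA libraries. There PSMB6 had 129 TPM with type 2, 176 TPM with type 1 and 142 TPM in control siRNA. PSMB9 had 16.6, 15.2 and 12.0 TPM in the same order. All 3 constitutive catalytic subunits were lower with type 2 than with type 1 in T47D-TamR, with a median log2 ratio of -0.51, so the denominators also differed. Type 2 thus gave the highest value of both ratios in both lines, yet PSMB5 exceeded PSMB8 in every library. TAP1 over TAP2 was 11.1 with type 2 and 6.46 in control siRNA of T47D-TamR, and 6.47 with type 2 and 4.72 in control siRNA of BT483. B2M over the sum of the 3 heavy chain members was 0.152 with type 2 and 0.104 in control siRNA of BT483, and 0.0849 with type 2 and 0.0940 in control siRNA of T47D-TamR. The direction of this last ratio differed between the lines.

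**Figure D3:**
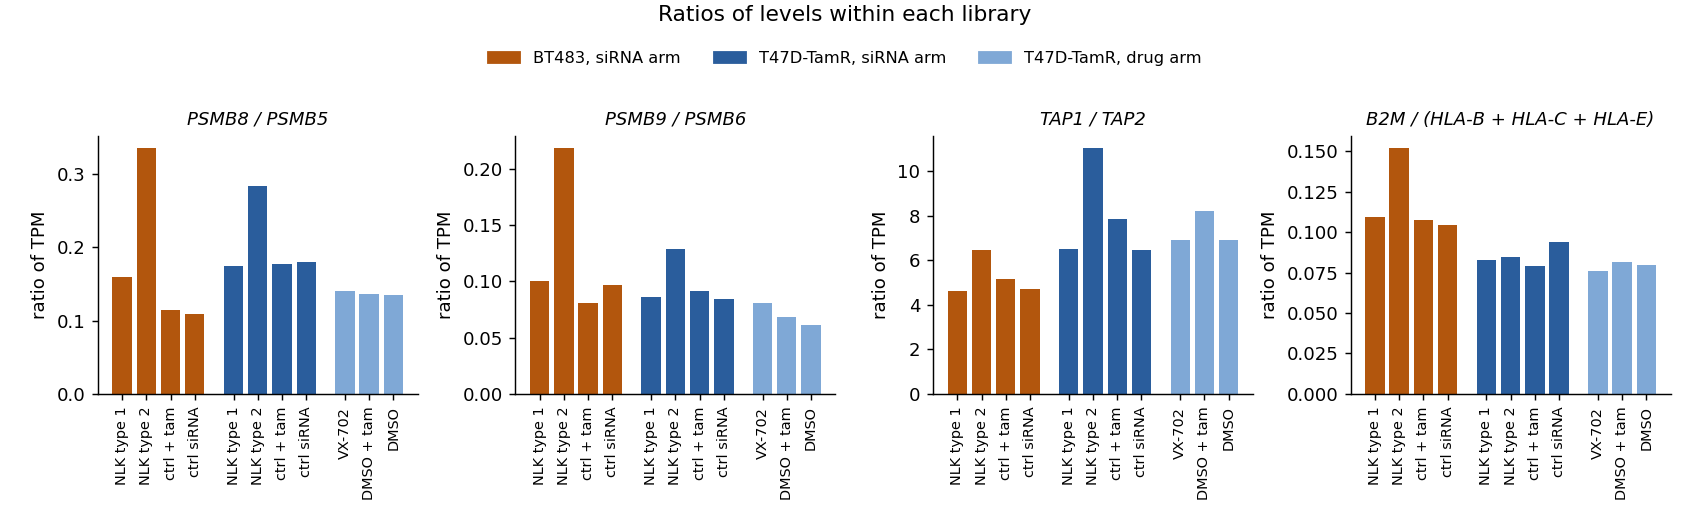
Ratios of TPM within each of the 11 libraries (vertical axes from 0), treated libraries left of their control. PSMB8 over PSMB5 reaches 0.336 in BT483 and 0.284 in T47D-TamR with NLK siRNA type 2, above the other libraries of the same line.

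Among other genes of the class I pathway, most loading and proteasome genes stayed near control in the type 2 libraries, while HLA-F stood well above it. HLA-F, a non-classical heavy chain, had 77.9 CPM with type 2, 24.3 CPM with type 1 and 17.3 CPM in control siRNA of BT483, and 45.0 CPM, 28.5 CPM and 20.2 CPM in T47D-TamR. HLA-F was not called for type 2 against type 1 (1.22 ± 0.27, edgeR adjusted p = 0.091). Of 12 genes of peptide loading and trimming, 0 passed 2-fold with type 2 in BT483, with a median log2 ratio of 0.19 and the highest at 0.97 for ERAP2, which trims peptides in the endoplasmic reticulum; with type 1 ERAP2 was at 1.16, the only one of the 12 past 2-fold. Of 5 further immunoproteasome and activator genes, 0 passed 2-fold, and PSMB10, the third immunoproteasome subunit, was highest at 0.66. The 3 constitutive catalytic subunits had a median of 0.26 and the 11 other subunits of the 20S core one of 0.07. In T47D-TamR with type 2 the medians were -0.04 for loading and trimming, with tapasin (TAPBP), which bridges heavy chains to the transporter, highest at 0.81, and -0.10 and -0.06 for the constitutive and core subunits. In the fit over both lines 0 genes of these 4 lists were called for knockdown and 0 for type 2 against type 1 by edgeR, with an unadjusted p under 0.05 for 2 and 2 genes in all. Over all 24023 genes, 1331 and 2191 had such an unadjusted p.

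A few regulators of class I genes and of interferon signalling were higher with type 2. IRF1, a factor that binds ISREs of class I promoters, had a log2 ratio to control siRNA of 1.08 in T47D-TamR and 0.35 in BT483. USP18, an inhibitor of interferon receptor signalling, stood at 1.70 in BT483 and 1.14 in T47D-TamR. STAT2, which carries type I and type III interferon signals to the nucleus, stood at 1.21 in BT483 and 0.91 in T47D-TamR, and was called for type 2 against type 1 (0.85 ± 0.14, edgeR adjusted p = 0.014). RFX5, a subunit of the complex that NLRC5 joins, stood at -0.32 in BT483 and -0.17 in T47D-TamR. MHC class II genes were also higher with type 2 in BT483, where 3 of 6 measured passed 2-fold (HLA-DRA 1.72, CD74 1.31 and HLA-DRB1 1.29), while 1 of 13, HLA-DMA, reached 5 CPM in T47D-TamR, at -0.27.

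Interferon transcripts were scarce. Summed over 7 interferon genes they came to 3.98 CPM with type 2, 0.78 CPM with type 1, 0.42 CPM with tamoxifen and 0.51 CPM in control siRNA of BT483. In T47D-TamR they came to 3.53 CPM with type 2, 1.95 CPM with type 1, 2.10 CPM with tamoxifen and 2.08 CPM in control siRNA, and to 0.15 to 0.17 CPM in the 3 drug-arm libraries. IFNL1, a type III interferon, led with 55 counts with type 2, 7 with type 1, 4 with tamoxifen and 2 in control siRNA of BT483. IFNG had at most 1 count in any library. The interferon sum was highest in the type 2 library of each line. In CPM, so were all 9 class I genes in BT483 and all but TAP2 and PSMB9 in T47D-TamR. The part of the interferon sum in the result was not tested. Markers of other cells were set beside these levels. In BT483 the 12 leukocyte markers summed to 18.9 CPM with type 2, 25.5 CPM with type 1, 15.9 CPM with tamoxifen and 22.4 CPM in control siRNA, nearly all of it CORO1A. The 10 fibroblast markers summed to 14.4 CPM with type 2 and 12.0 to 14.7 CPM in the other BT483 libraries, and the 7 endothelial markers to 2.71 CPM with type 2 and 1.78 to 3.63 CPM in the others. With type 2, COL1A1 made up 11.7 CPM of the fibroblast sum and VWF 2.45 CPM of the endothelial sum. The BT483 type 2 library was the highest for none of the 3 marker sums, and their part in the result was not tested. In T47D-TamR the fibroblast markers summed to 73.0 CPM with type 2, 75.8 CPM with type 1, 61.5 CPM with tamoxifen and 52.9 CPM in control siRNA, and the leukocyte markers to 8.81 CPM, 5.84 CPM, 7.73 CPM and 5.41 CPM in the same order. COL1A1 made up most of the fibroblast sum, while POSTN had 85 counts with type 2, 130 with type 1, 0 with tamoxifen and 48 in control siRNA. In T47D-TamR these sums were higher in both knockdown libraries than in control siRNA, and their part in the result was not tested.

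**Figure D4:**
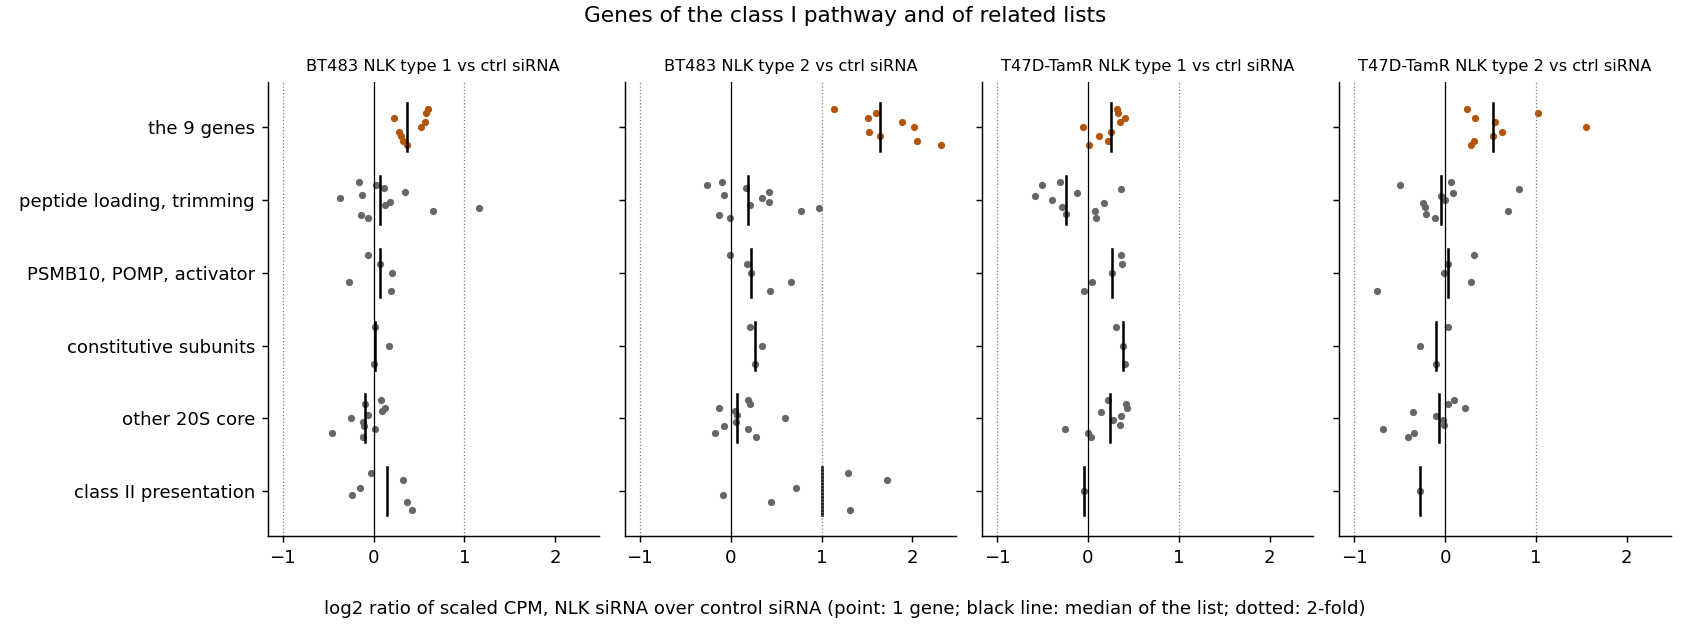
Log2 ratios of NLK siRNA to control siRNA (horizontal axes) for single genes whose mean in the line reached 5 CPM (points), by list (rows), with the median of each list as a black line. With type 2 in BT483 the 9 genes lie right of the dotted 2-fold line, while peptide loading genes and core proteasome subunits have medians of 0.19 and 0.07.

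Tamoxifen left the class I genes near their controls. In BT483 the log2 ratios of tamoxifen to control siRNA ran from -0.23 for TAP2 to 0.24 for HLA-C, with 5 positive and 4 negative and a median of 0.11 against 0.02 over all genes. None of the 9 passed 2-fold in either direction, as 4.63% of genes did. In T47D-TamR the ratios ran from -0.17 for B2M to 0.21 for TAP1 with control siRNA (2.63% of genes past 2-fold) and from -0.14 for TAP2 to 0.27 for NLRC5 with DMSO (0.102%), with none of the 9 past 2-fold. In T47D-TamR, B2M was lower with tamoxifen in the siRNA arm, at 346 against 388 CPM, and higher in the drug arm, at 298 against 268 CPM. In the fits by edgeR, none of the 9 genes was called for tamoxifen over both lines (0.0416% of genes), in BT483 (1.49%), in T47D-TamR (0.221%) or for the difference between lines (0.691%). None had an unadjusted p under 0.05 in these 4 tests, as 1590, 2083, 1444 and 2090 of 24023 genes had in the same order. DESeq2 and limma called none of the 9 either. The estimates over both lines ran from -0.12 ± 0.19 (SE) for TAP2 to 0.19 ± 0.35 for HLA-C. The 10 fibroblast markers of T47D-TamR summed to 61.5 CPM with tamoxifen and 52.9 CPM with control siRNA, and in the drug arm to 65.3 CPM with tamoxifen and 62.6 CPM with DMSO, most of it COL1A1. The sums follow that gene and not the list. In the edgeR fit for tamoxifen in T47D-TamR, 6 of the 7 fibroblast markers tested were lower, with a median log2 change of -1.84. Only COL1A1 was higher, at 0.30. The part of these markers in the ratios of the class I genes was not tested.

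VX-702 was compared with DMSO in T47D-TamR, 1 library against 1. All 9 genes were higher with VX-702, by log2 ratios of 0.08 for HLA-E to 0.66 for NLRC5, with a median of 0.23 against 0.05 over all genes. None passed 2-fold, as 0.0767% of genes did in the higher direction. NLRC5 had 3.84 CPM with VX-702 and 2.40 CPM with DMSO, from 92 and 59 counts, a ratio of 1.60 (1.14 to 2.26). PSMB9 had 12.8 CPM with VX-702 and 8.69 CPM with DMSO, 1.47 times (1.23 to 1.76), and TAP1 116 CPM and 89.1 CPM, 1.297 times (1.226 to 1.372). TAP2 had 22.1 CPM with VX-702 and 17.1 CPM with DMSO, 1.29 times (1.13 to 1.47). Heavy chains and B2M stayed within 1.06 to 1.17 times the DMSO level. NLK itself was at 84.3% of its DMSO level with VX-702.

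Control siRNA and DMSO served as controls of separate arms, and the class I genes stood apart between them. With control siRNA 8 of the 9 genes were higher than with DMSO in T47D-TamR, with a median log2 ratio of 0.53 against 0.01 over all genes. NLRC5 had 5.01 CPM with control siRNA and 2.40 CPM with DMSO, 2.09 times (1.52 to 2.90), and was the only one past 2-fold, as 0.699% of genes were. PSMB9 had 15.1 CPM with control siRNA and 8.69 CPM with DMSO, 1.74 times (1.47 to 2.07), and PSMB8 33.7 and 21.8 CPM, 1.55 times (1.39 to 1.73). HLA-E went the other way, with 192 CPM with control siRNA and 201 CPM with DMSO. NLRC5 had 1.07 TPM with control siRNA and 0.53 TPM with DMSO, and on the deposited log2(TPM + 1) scale, where the added 1 narrows differences at such low levels, it differed by 0.44. Transfection, the culture time of the arm and the single libraries cannot be told apart here. Beside the interferon sums given above, genes of fibroblasts also differed between these libraries: POSTN had 48 counts with control siRNA and 10 or fewer in all drug-arm libraries, and VIM 40 counts with control siRNA and 3 or fewer there, while the sum of the 10 fibroblast markers, mostly COL1A1, was 52.9 CPM with control siRNA and 62.6 CPM with DMSO. Their part in the result was not tested.

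Between the lines the same 4 conditions could be paired (edgeR, 8 siRNA-arm libraries, condition as a block, 21990 genes). Of the 9 genes 5 were called, 4 lower and 1 higher in BT483, where 70.7% of all genes were called. A share of 5 in 9 lies below that background. HLA-B had 284, 938, 244 and 227 CPM in BT483 with type 1, type 2, tamoxifen and control siRNA, against 1438, 1540, 1260 and 1237 CPM in T47D-TamR. It was the only gene of the 9 whose ranges in the lines did not overlap, as they did not for 70.1% of 12311 genes, and its log2 difference was -2.02 ± 0.36 (SE, adjusted p = 0.005). That call was lost without either tamoxifen library (adjusted p = 0.073 without the BT483 one and 0.080 without the T47D-TamR one). TAP1 was lower in BT483 in 4 of 4 conditions (-0.83 ± 0.14, adjusted p = 2.99e-04), and so was HLA-E (-0.75 ± 0.16, adjusted p = 0.001). PSMB9 was lower in 3 of 4 conditions (-0.64 ± 0.23, adjusted p = 0.027), a call lost without the type 1 library or the control siRNA library of either line (adjusted p from 0.093 to 0.120).

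NLRC5 was the only member higher in BT483 among those called. It was higher in BT483 in 4 of 4 conditions, with 19.6, 55.4, 12.2 and 13.6 CPM in BT483 with type 1, type 2, tamoxifen and control siRNA, against 4.84, 14.9, 5.74 and 5.01 CPM in T47D-TamR. Its log2 difference was 1.58 ± 0.18 (SE, edgeR adjusted p = 1.22e-05). HLA-C, B2M, TAP2 and PSMB8 were not called, at -0.27 ± 0.18, -0.56 ± 0.39, -0.24 ± 0.18 and -0.43 ± 0.22. They were lower in BT483 in 3 of 4 conditions and higher with type 2. All 9 genes were called without the BT483 library with type 2, where 14695 of 23360 genes were, and without the T47D-TamR one, where 14762 of 23548 were. The other 8 genes were then lower in BT483.

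**Figure D5:**
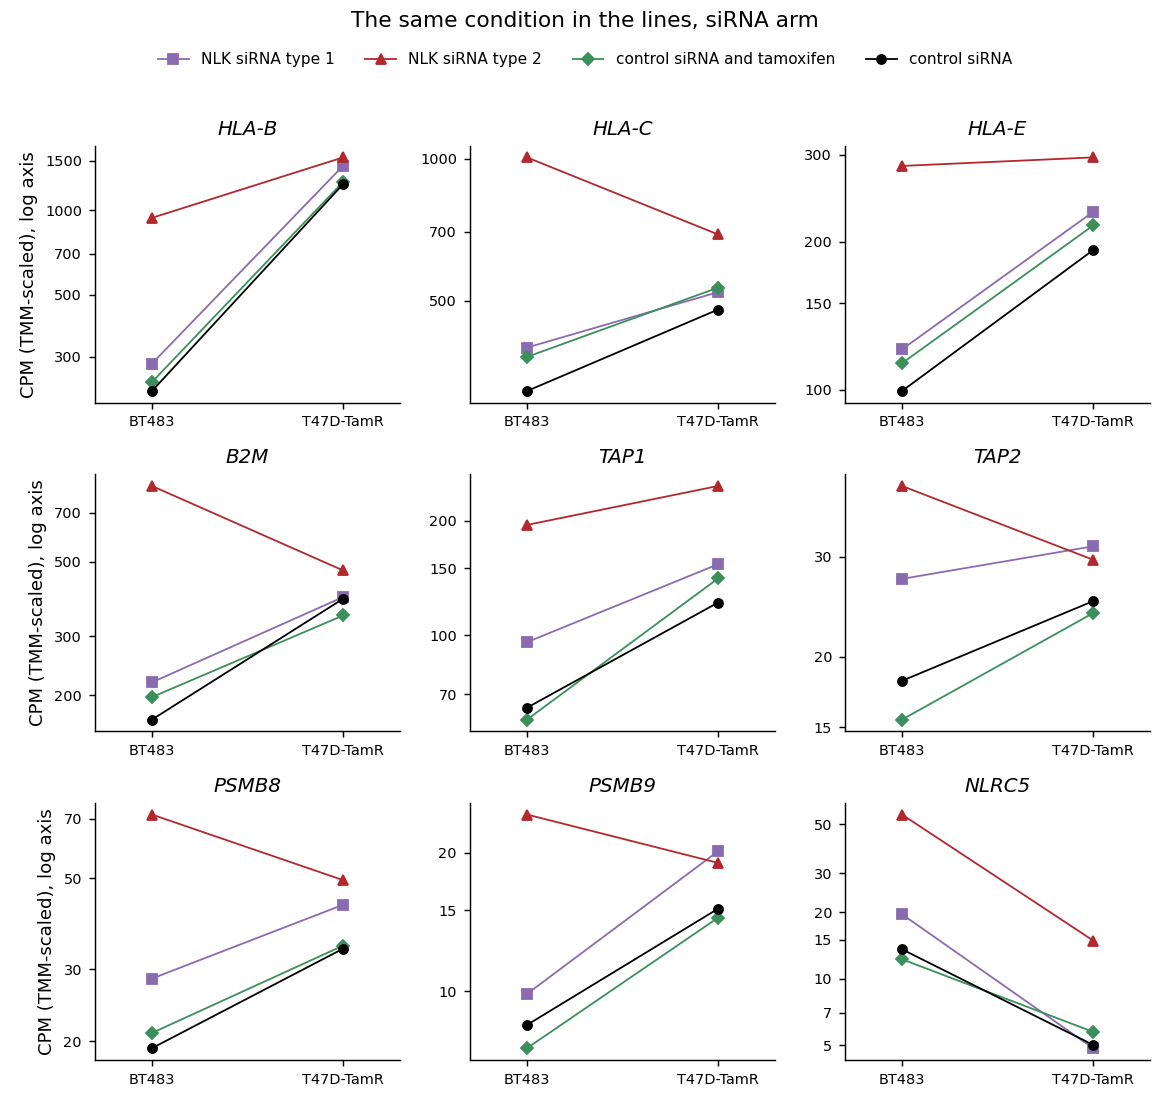
CPM (vertical axes, logarithmic) of the 9 genes in BT483 (left) and T47D-TamR (right), with 1 line for each condition of the siRNA arm. NLRC5 is higher in BT483 in all 4 conditions, and HLA-B is at most 938 CPM in BT483 and at least 1237 CPM in T47D-TamR.

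Within the 3 arms the 9 genes varied together. After centring log2 CPM within each arm, each gene's Pearson correlation with the average of the 9 over the 11 libraries was between 0.897 for TAP2 and 0.994 for PSMB8, a description in which the BT483 library with type 2 carries much of the range and each gene is part of the average. Among 13637 genes with an average log2 CPM of at least 1, genes outside the 9 that were most like this average included HLA-F (r = 0.983), IFI6 (0.983), ISG15 (0.980), IRF7 (0.978) and IFI27 (0.972), over the same 11 libraries. ISG15 had 266 CPM with type 2, 65.7 CPM with type 1, 39.9 CPM with tamoxifen and 38.0 CPM in control siRNA of BT483. In T47D-TamR it had 93.5 CPM with type 2, 64.7 CPM with type 1, 35.6 CPM with tamoxifen and 41.4 CPM in control siRNA, and 8.399 to 11.6 CPM in the drug arm. IFI6 had 1171 CPM with type 2, 286 CPM with type 1, 142 CPM with tamoxifen and 143 CPM in control siRNA of BT483.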

How the data were processed

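RNA-seq of 11 libraries was analysed from the deposited tables. Per the labels' protocols, libraries were stranded mRNA preparations sequenced as read pairs, and GRCh38 is named in the submitters' processing notes. The authors deposited whole-number counts per gene, named as featureCounts output; how strand and multiply mapped reads were treated is not given in the sources used here. Further deposited files give TPM on a log2(TPM + 1) scale for each library, and a normalized log2 TPM matrix, used here for levels per length and as an alternative.

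Counts were scaled by TMM (edgeR 4.0.16, R 4.3.3). Comparisons of 1 library with another give log2 ratios (prior count 2) and exact 95% binomial intervals, with no test. Tests used edgeR's quasi-likelihood F test (filterByExpr, robust), Benjamini-Hochberg adjusted over all genes tested, with cell line and arm, knockdown, tamoxifen and VX-702 as terms. Residuals come from libraries of different conditions, so p-values measure the spread between these libraries only. DESeq2 1.42.0 and limma 3.58.1 were alternatives, besides other scaling, filters, a length and GC adjustment and leaving out each library. The fits were tested on simulated data with the same spread for every gene. Of genes changed 2-fold, 86.6% were recovered for knockdown over both lines, 31.3% in BT483 and 34.3% in T47D-TamR. For tamoxifen the shares were 79.1%, 23.9% and 67.2% in the same order. For the difference between lines they were 7.46% for knockdown and 4.48% for tamoxifen. Type 2 against type 1 gave 53.7%, and BT483 against T47D-TamR 92.5%. Within each simulation a changed gene had the same fold in every library given the change. The members did not behave so, as B2M had 218 CPM with type 1 and 842 CPM with type 2 in BT483. These shares therefore do not give the power for the members.

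The 9 members and all gene lists were chosen with earlier results of these data known. Every member is named in every comparison; of other lists, mainly genes with the largest log2 change, and of genes like the members 5 with the highest correlation. Some listed genes are not reported here. ERAP2 with type 1, RFX5, POSTN, VIM and the interferon genes were named outside this rule after their values were seen.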

Additional observations from a re-analysis of the deposited data

Results flagged for a closer look

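With tamoxifen, TAP1 and NLRC5 stood on opposite sides of their controls in the 2 lines. TAP1 had a log2 ratio of -0.10 in BT483, against 0.21 with control siRNA and 0.11 with DMSO in T47D-TamR, and the BT483 ratio less the average of the T47D-TamR ratios was -0.265. The fitted difference was -0.33 ± 0.68 (SE, edgeR quasi-likelihood F test, adjusted p = 0.979). NLRC5 had a log2 ratio of -0.15 in BT483, against 0.19 with control siRNA and 0.27 with DMSO in T47D-TamR, a difference of -0.382. Its fitted difference was -0.45 ± 1.39 (edgeR, adjusted p = 1.0). Both differences were smaller than their errors.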

How the results depend on the processing

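Each group has 1 library, so replicate numbers pair nothing, and the blocks in the fits are line and arm, or condition between lines. Each pairwise comparison rests on single libraries, and counting intervals hold no variation between cultures. Of the values of single genes and of all genes, 1249 stayed the same under the alternatives and 178 moved. A further 42 passed the threshold, 18 lost it and 16 changed sign. For ratios of single libraries, the same means inside the counting interval, and a moved ratio could keep its sign. For counts of all genes called it means within a set factor, and for tested genes on the same side of the threshold. Members past 2-fold numbered 1 under the length and GC adjustment for T47D-TamR type 2 (2 as reported), and 0 on deposited log2(TPM + 1), which narrows low values, for control siRNA against DMSO (1 as reported). Called members for knockdown were 7 in both lines and 2 in BT483 without a filter, where 249 and 163 genes were called in all, against 1 and 1 with it. Leaving out libraries gave 0 to 6 called members in BT483 (6 without type 1, of 149 genes in all) and 0 to 1 for the difference between lines (1 of 5 without BT483 type 1). For type 2 against type 1, called members were 3 of 339 genes called in all without a filter, 2 of 196 with the length and GC adjustment, 0 of 0 without the block, 4 of 341 by DESeq2 and 0 of 0 by limma, and 0 to 8 leaving out libraries (8 of 99 without T47D-TamR type 2). Between lines they were 2 of 14351 without the block, 3 of 12741 by limma and 4 to 9 leaving out libraries (9 without either type 2 library). Signs turned without the block for HLA-B in the BT483 knockdown (-0.40) and, in the knockdown difference between lines, for HLA-B (-1.33), HLA-E (-0.42), TAP1 (-0.51) and PSMB9 (-0.24), and by limma for HLA-C between lines (0.30). Leaving out libraries, NLRC5 in the T47D-TamR knockdown ran from -0.0034 to 1.62. The knockdown difference between lines ran from -0.0023 to 1.79 for HLA-B, -0.059 to 1.35 for HLA-C, -0.19 to 1.12 for HLA-E, -0.16 to 0.94 for TAP1, -0.22 to 1.15 for PSMB9 and -0.50 to 1.46 for NLRC5, each lowest without BT483 type 2. Type 2 against type 1 ran from -0.19 to 0.65 for TAP2 and -0.033 to 1.23 for PSMB9, lowest without BT483 type 2. Fewer samples remain in these fits; otherwise the cause was not tested.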
